A study of Rattus norvegicus with 5 samples.

Results

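Pax6, Klf4, Klf5, Elf3, Ehf, Tp63, Grhl2, Grhl3, Esrp1 and Ovol1 encode 9 transcription factors and 1 splicing factor of the corneal epithelium. They were taken by symbol from the deposited gene table, and all 10 were found among its 20339 genes. The 10 factors and the gene lists used below were chosen with earlier results of these data known. The table comes from RNA sequencing of whole corneas dissected from male Sprague-Dawley rats aged 6 months. Transgenic P1 hMR rats, which carry human NR3C2 and make an excess of the mineralocorticoid receptor it encodes, gave 2 corneas, and wild-type rats gave 3. The labels name no other difference between the groups and no treatment. What drives the transgene, how many founder lines were used and whether littermates were compared are not given in the sources used here, and each library is taken as 1 rat. P-values measure the spread between these libraries.

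These genes form the regulatory layer that makes a surface cell epithelial and, in the eye, corneal. Pax6, a paired-box and homeodomain factor, directs eye development and holds the corneal identity of the adult epithelium; lens, iris, ciliary body and retina use it as well. The zinc-finger factors Klf4 and Klf5 act mainly in differentiating and in proliferating epithelial cells. Elf3 and Ehf are ETS factors confined largely to epithelia. Tp63 maintains basal and limbal stem cells, and the grainyhead-like factors Grhl2 and Grhl3 switch on junction and barrier genes. Esrp1 binds RNA and directs epithelial splicing of genes such as Fgfr2 and Cd44, while the zinc-finger repressor Ovol1 restrains mesenchymal genes.

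Gene-table totals ran from 20874010 to 30449675 expected counts per library, and the 10 factors had between 984 and 35171 counts each. Human NR3C2 gave 1094 and 1146 counts in transgenic corneas and 0 in each wild-type cornea. Levels are CPM, counts scaled to library size after TMM normalization, which are not divided by transcript length and so are compared only within a gene. The corneal epithelium was well represented: Krt12, its defining keratin, had 45506 and 32247 CPM in transgenic corneas and 37489, 45093 and 38584 CPM in wild-type corneas. Other tissues were present too. Lens markers (12 measured) summed to 19.2 and 12.1 CPM in transgenic corneas and to 153, 35.1 and 27.7 CPM in wild-type corneas, and markers of iris, ciliary body and pigment cells (7 measured) to 76.3 and 146 CPM against 43.0, 6.66 and 28.6 CPM. Conjunctival markers (4 measured) summed to 2904 and 5512 CPM in transgenic corneas and to 2628, 3779 and 4197 CPM in wild-type corneas, overlapping between the groups. Krt13, a keratin of conjunctival and other non-corneal mucosa, had 1986 and 3949 CPM in transgenic corneas and 1608, 2591 and 2821 CPM in wild-type corneas. Krt4 had 916 and 1562 CPM against 1017, 1188 and 1372 CPM, and also overlapped. Spdef was low, with a mean of 1.69 CPM in transgenic corneas and 2.315 CPM in wild-type corneas, and Tff3 was at 0 throughout.

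None of the 10 factors passed the edgeR quasi-likelihood test between genotypes. All 10 passed the filter on low counts, 4 were estimated higher and 6 lower in transgenic corneas, and 0 reached an adjusted p of 0.05, where 0.00752% of all 13304 genes tested did. None had an unadjusted p under 0.05 either (6.32% of all genes), and DESeq2 and limma voom also called 0 of the 10. Their log2 fold changes, transgenic over wild-type, ran from -0.25 to 0.16 with a median of -0.05, beside a median of -0.01 over all genes tested. Adjusted p-values lay between 0.828 and 0.974. Because whole corneas were sequenced, fewer epithelial cells and less RNA per cell cannot be told apart in any of these values.

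**Figure D1:**
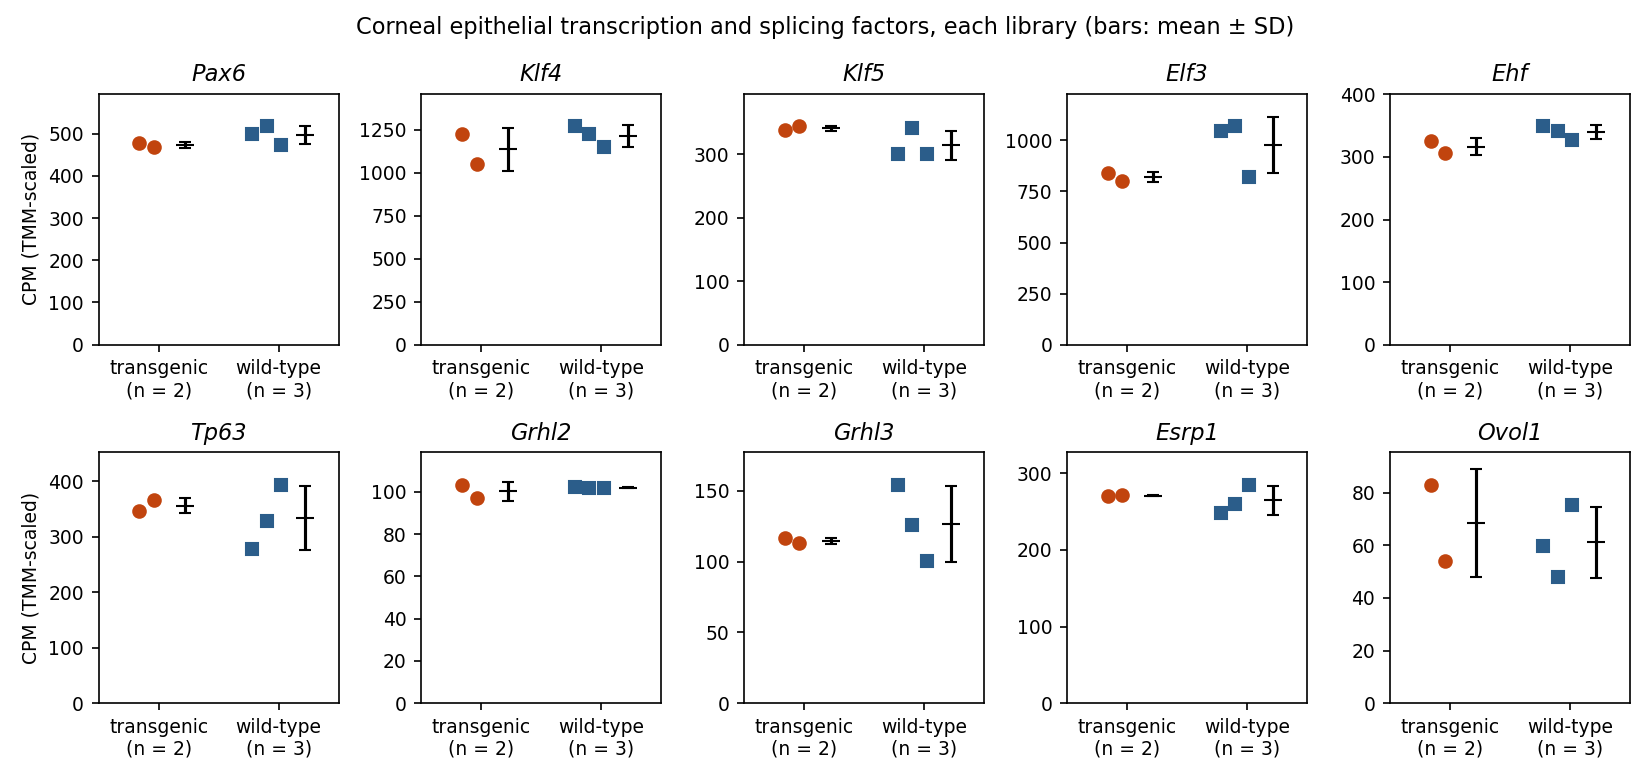
CPM of the 10 factors in each of 2 transgenic (circles) and 3 wild-type (squares) corneas, with the mean and SD beside the points; each axis starts at 0. The genotypes overlap in every panel but that of Ehf, where 326 and 307 CPM in transgenic corneas lie just under the lowest wild-type value of 328 CPM.

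Pax6 was nearly level across the 5 corneas. It had 477 and 468 CPM in transgenic corneas, against 499, 518 and 474 CPM in wild-type corneas, so the transgenic values sat at the lower end of the wild-type range and overlapped it. The log2 fold change was -0.07 ± 0.10 (SE), and its 95% interval of -0.29 to 0.15 runs from a ratio of 0.819 to one of 1.11. Lens cells also express Pax6. The lens markers of wild-type cornea 1 summed to 153 CPM, and without that cornea the log2 fold change of Pax6 was -0.06. The part of lens, iris, conjunctiva and retina in the Pax6 level was not tested. Conjunctival markers, given above, had larger sums than those of lens or iris in every library. Their part in the levels of the other factors was not tested either.

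Klf4 and Klf5 both overlapped between the genotypes. Klf4, a factor of differentiating surface cells, had 1222 and 1048 CPM in transgenic corneas and 1270, 1225 and 1147 CPM in wild-type corneas. Transgenic cornea 2 was the lowest of all 5, and transgenic cornea 1 lay inside the wild-type range (log2 fold change -0.10 ± 0.11, adjusted p = 0.907). Klf5, which supports proliferation of epithelial cells, had 338 and 344 CPM in transgenic corneas and 301, 341 and 301 CPM in wild-type corneas. Here transgenic cornea 2 was the highest, only just above wild-type cornea 2 (log2 fold change 0.12 ± 0.10, adjusted p = 0.875). The log2 ratio of Klf4 over Klf5, which does not depend on library scaling, was 1.85 and 1.61 in transgenic corneas and 2.08, 1.84 and 1.93 in wild-type corneas. The mean difference of -0.22 did not pass an exact two-sided permutation test (p = 0.400), in which 2 against 3 corneas cannot give a p below 0.200. It was -0.34 without transgenic cornea 1 and -0.099 without transgenic cornea 2.

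Elf3 and Ehf, the ETS factors, were both estimated lower in transgenic corneas, and neither passed. Elf3 had 839 and 802 CPM in transgenic corneas and 1045, 1069 and 822 CPM in wild-type corneas. Wild-type corneas 1 and 2 stood above the other 3, while wild-type cornea 3 fell between the transgenic values, so the groups overlapped. The log2 fold change of -0.25 ± 0.13 was the largest in size among the 10 factors (unadjusted p = 0.0799, adjusted p = 0.828; 95% interval -0.55 to 0.04); with 1 library left out in turn it ran from -0.36 without wild-type cornea 3 (adjusted p = 0.367) to -0.18 without wild-type cornea 2 (adjusted p = 0.9995). Ehf had 326 and 307 CPM in transgenic corneas and 349, 342 and 328 CPM in wild-type corneas. It was the 1 factor of 10 with both transgenic values below every wild-type value, 326 CPM against 328 CPM at the closest point; 10.7% of all genes tested show that order. Its log2 fold change was -0.10 ± 0.09, with an adjusted p of 0.883.

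Tp63, the basal-cell factor, varied more within wild-type corneas than between genotypes. It had 347 and 366 CPM in transgenic corneas and 278, 329 and 394 CPM in wild-type corneas, so both transgenic values fell inside the wild-type range. The log2 fold change was 0.10 ± 0.14, and -0.01 without wild-type cornea 1, the library with the lowest level. Tp73, its p53-family relative, had 4.20 and 9.10 CPM in transgenic corneas and 3.86, 2.74 and 4.74 CPM in wild-type corneas (log2 fold change 0.82 ± 0.36, unadjusted p = 0.0522, adjusted p = 0.790). That estimate rests on transgenic cornea 2, since transgenic cornea 1 lay inside the wild-type range.

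The grainyhead-like factors Grhl2 and Grhl3 differed in how much they varied. Grhl2, which maintains epithelial junctions, was the steadiest of the 10, with 103 and 97.0 CPM in transgenic corneas and 102, 102 and 102 CPM in wild-type corneas (2682 and 3048 counts against 2829, 2086 and 2233 counts). Its highest library was 1.07 times its lowest, and of 8749 other genes with a mean of at least 10 CPM only 1.67% had a narrower range of log2 CPM. The log2 fold change was -0.03 ± 0.09, with a 95% interval of -0.22 to 0.17. Grhl3, a factor of barrier formation, had 116 and 113 CPM in transgenic corneas and 154, 125 and 100 CPM in wild-type corneas. Wild-type corneas held both its highest and its lowest value, and 88.7% of the same genes had a narrower range. Its log2 fold change of -0.14 ± 0.17 turned to 0.03 without wild-type cornea 1. Grhl1, the remaining family member, had 434 and 405 CPM in transgenic corneas, below the 490, 461 and 479 CPM of all wild-type corneas (log2 fold change -0.18 ± 0.10, adjusted p = 0.833).

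Esrp1 did not pass the test. It had 271 and 271 CPM in transgenic corneas, which lay close together inside the wild-type values of 249, 260 and 285 CPM (log2 fold change 0.04 ± 0.10, 95% interval -0.19 to 0.26). Esrp2, its paralog, had 295 and 281 CPM in transgenic corneas and 303, 290 and 308 CPM in wild-type corneas. The log2 ratio of Esrp1 over Esrp2 was -0.12 and -0.05 in transgenic corneas and -0.29, -0.16 and -0.11 in wild-type corneas, overlapping between the groups (exact two-sided permutation test, p = 0.400).

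Ovol1 varied most of the 10. It had 83.0 and 54.1 CPM in transgenic corneas and 59.9, 48.2 and 75.3 CPM in wild-type corneas, a 1.73-fold range over the 5 libraries with the genotypes interleaved. Transgenic cornea 1 and wild-type cornea 3 were high, and wild-type cornea 2 and transgenic cornea 2 low. The log2 fold change of 0.16 ± 0.26 had a 95% interval of -0.48 to 0.81 and was -0.18 without transgenic cornea 1, so the interval reaches a 1.75-fold difference. Ovol2, a relative of Ovol1 that also represses mesenchymal genes, had 9.02 and 9.996 CPM in transgenic corneas and 5.74, 5.82 and 9.79 CPM in wild-type corneas (log2 fold change 0.42 ± 0.25, adjusted p = 0.836).

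**Figure D2:**
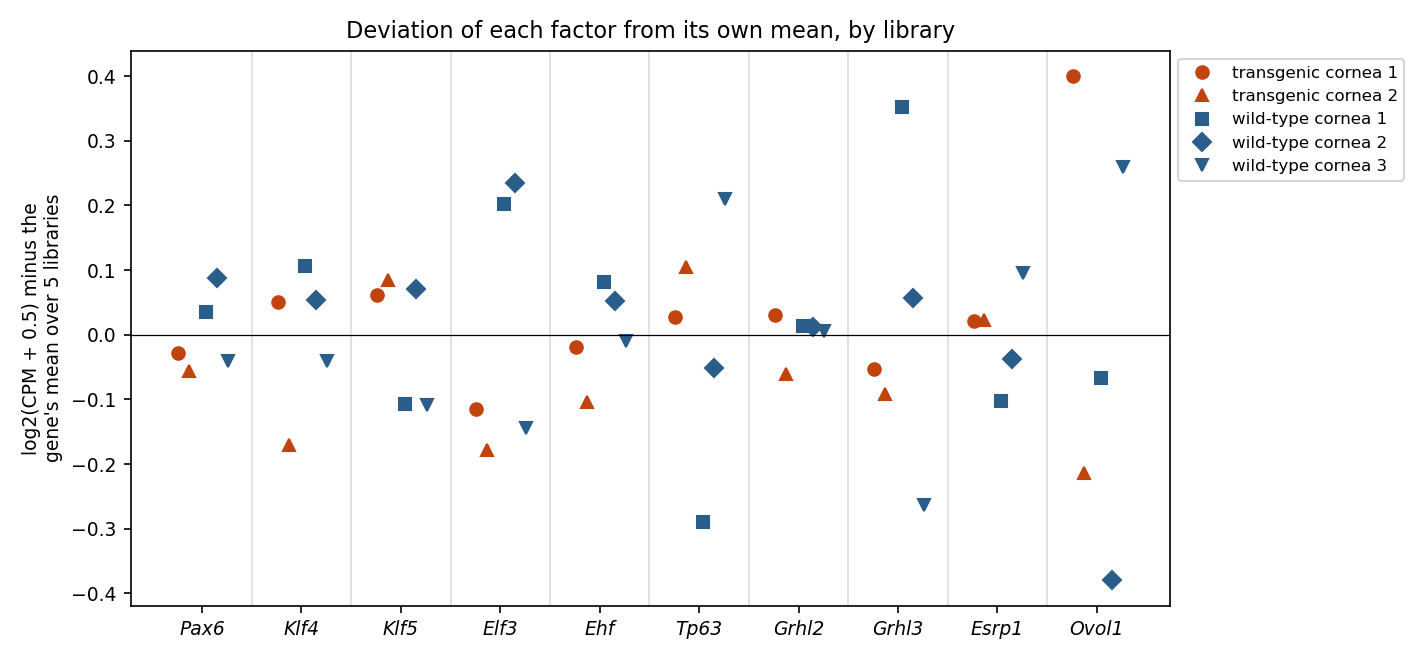
Deviation of log2(CPM + 0.5) of each factor from its own mean over the 5 libraries; each point is 1 library, with transgenic corneas on the left of each column. Grhl2 stays within 0.1 of its mean, whereas Grhl3 is high and Tp63 low in wild-type cornea 1, Elf3 is high in wild-type corneas 1 and 2, and Ovol1 ranges from 0.40 in transgenic cornea 1 to -0.38 in wild-type cornea 2.

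The factors did not share one pattern of variation between individual corneas. Likeness was measured as the root mean square difference of log2(CPM + 0.5) over the 5 libraries, each gene taken as its deviation from its own mean. Pax6 and Ehf were the closest of the 45 pairs, at 0.04, and Elf3 with Ovol1 the farthest apart, at 0.42. Elf3 and Grhl3 differed by 0.13 and both were high in wild-type cornea 1, and Elf3 was slightly higher still in wild-type cornea 2. Tp63 was low in wild-type cornea 1 and differed from Grhl3 by 0.37. Wild-type cornea 1 is also the library with the most lens RNA, and the part of that in the Elf3, Grhl3 and Tp63 levels was not tested. Among 8749 other genes with a mean of at least 10 CPM, those with the pattern closest to that of Ovol1, the factor with the widest range, were Lrrn3, Cdh4, Cntrob, Arid5b and Wnt2, at 0.04 to 0.08. With 5 libraries this is a description of these corneas alone.

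Elf3, Grhl3 and Tp63 were, with Ovol1, the factors of widest range, and the 250 bases before their RefSeq transcription starts are shown for these 3 (assembly GRCr8, whereas the counts rest on rn6; 1 start per gene, read 5′ to 3′ in the direction of transcription). Capitals mark matches, on either strand, to CCACCC, a box bound by KLF factors, to AGGAAG, an ETS core, or to CAGGTG, an E-box bound by SNAI and ZEB factors.
Elf3 (chr13:49247087-49247336, minus strand): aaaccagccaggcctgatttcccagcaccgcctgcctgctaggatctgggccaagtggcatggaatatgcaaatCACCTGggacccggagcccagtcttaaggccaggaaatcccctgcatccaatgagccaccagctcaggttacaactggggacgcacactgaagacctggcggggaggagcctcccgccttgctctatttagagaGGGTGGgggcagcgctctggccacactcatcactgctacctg
Grhl3 (chr5:153089891-153090140, minus strand): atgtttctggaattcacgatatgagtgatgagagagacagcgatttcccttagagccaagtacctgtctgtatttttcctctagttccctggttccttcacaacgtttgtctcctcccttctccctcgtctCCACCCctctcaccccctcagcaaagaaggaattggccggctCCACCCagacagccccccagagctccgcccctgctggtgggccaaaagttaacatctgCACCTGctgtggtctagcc
Tp63 (chr11:88554178-88554427, minus strand): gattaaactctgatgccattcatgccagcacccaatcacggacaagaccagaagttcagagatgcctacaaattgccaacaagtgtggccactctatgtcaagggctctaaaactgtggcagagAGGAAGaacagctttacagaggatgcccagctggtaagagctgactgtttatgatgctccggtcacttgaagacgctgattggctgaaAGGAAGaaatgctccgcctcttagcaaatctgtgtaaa
The Elf3 and Grhl3 stretches hold 1 and 2 KLF boxes and 1 E-box each, while that of Tp63 holds 2 ETS cores and neither of the others. Matches are common: of 33469 rat promoters of this length 26.1% hold a KLF box, 29.5% the ETS core and 15.9% the E-box. The grainyhead-like core AACNGGTT occurs in 1.76% of them and in 0 of the 6 factors with an entry (Pax6, Klf4, Klf5, Elf3, Tp63 and Grhl3). No motifs searched overlapped in the 3 stretches shown, and a match describes the letters, not a bound site. Tp63 has more than one promoter, and the table gives one start.

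Related epithelial factors did not pass the test. Of 15 listed, 14 were tested: 9 were estimated higher, 5 lower and 0 passed by edgeR, DESeq2 or limma voom, 1 had an unadjusted p under 0.05, and the list had a median log2 fold change of 0.04. Meis1, a homeodomain factor, had the smallest p, with 43.6 and 52.2 CPM in transgenic corneas, above the 33.8, 41.1 and 41.9 CPM of all wild-type corneas (log2 fold change 0.30 ± 0.13, adjusted p = 0.774). Elf5, an ETS relative of Elf3 and Ehf, had 33.6 and 22.3 CPM in transgenic corneas and 42.3, 31.7 and 35.1 CPM in wild-type corneas (log2 fold change -0.38 ± 0.20). The estimates were closer to 0 for Znf750, which promotes late epidermal differentiation (0.09 ± 0.12), and for Tfap2a, an early surface-ectoderm factor (0.16 ± 0.12).

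Repressors of epithelial genes, which drive mesenchymal programmes and are active in stromal cells, leaned to one side. Of 8 listed 7 were tested, and all 7 were estimated higher in transgenic corneas, against 48.2% of all genes tested. The median log2 fold change was 0.44, 0 rose or fell past the edgeR threshold, and 2 had an unadjusted p under 0.05. DESeq2 and limma voom called 0 of them as well. With 1 library left out in turn, 6 or 7 of the 7 stayed above 0, with medians between 0.33 and 0.51. Prrx1, a homeodomain factor of mesenchyme, had 33.9 and 37.2 CPM in transgenic corneas and 25.9, 25.4 and 26.4 CPM in wild-type corneas (log2 fold change 0.46 ± 0.10, adjusted p = 0.432). Twist1 had 12.0 and 13.6 CPM in transgenic corneas and 9.79, 10.5 and 7.60 CPM in wild-type corneas (0.46 ± 0.18, adjusted p = 0.731). For these genes and for Zeb1 and Zeb2, the lower transgenic value exceeded the highest wild-type one, an order found in 12% of all genes tested; Snai1, Snai2 and Twist2 overlapped between the groups.

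Stromal markers also leaned to one side. Of 7 tested, 6 were estimated higher and 0 passed the edgeR threshold (lowest adjusted p = 0.380). An unadjusted p under 0.05 was found for 5 of them, where 6.32% of all genes tested had one. Kera, Col1a1, Col5a1, Fmod and Prelp were higher in each transgenic cornea than in any wild-type cornea, an order shown by 12% of all genes tested, while Lum and Dcn overlapped between the groups. Together the 7 summed to 2338 and 2507 CPM in transgenic corneas and 1994, 2040 and 1913 CPM in wild-type corneas. Markers of the corneal endothelium (6 measured, 3 above all wild-type values, 0 past the threshold) summed to 1007 and 1032 CPM in transgenic corneas and 879, 864 and 974 CPM in wild-type corneas. Those of retina and pigment epithelium (6 measured, 4 above all wild-type values, 0 past the threshold) were low throughout, at 10.4 and 12.7 CPM in transgenic corneas and 6.75, 1.71 and 3.64 CPM in wild-type corneas. The part of stromal, endothelial, iris and retinal RNA in the repressor levels was not tested. Markers of the corneal epithelium (8 measured) summed to 128890 and 102730 CPM in transgenic corneas and 110380, 123980 and 117110 CPM in wild-type corneas, overlapping between the groups. Set against the mean of these markers within each library, Klf5 was the 1 factor of 10 with both transgenic log2 ratios (-3.63 and -3.46) above all wild-type ones (-3.74, -3.65 and -3.76). The difference was 0.17 (exact two-sided permutation p = 0.200, the smallest the design allows, and 0.818 adjusted over 15 ratios). It was 0.09 without transgenic cornea 2 and 0.25 without transgenic cornea 1. The share of all genes with both transgenic ratios above all wild-type ones was not computed.

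**Figure D3:**
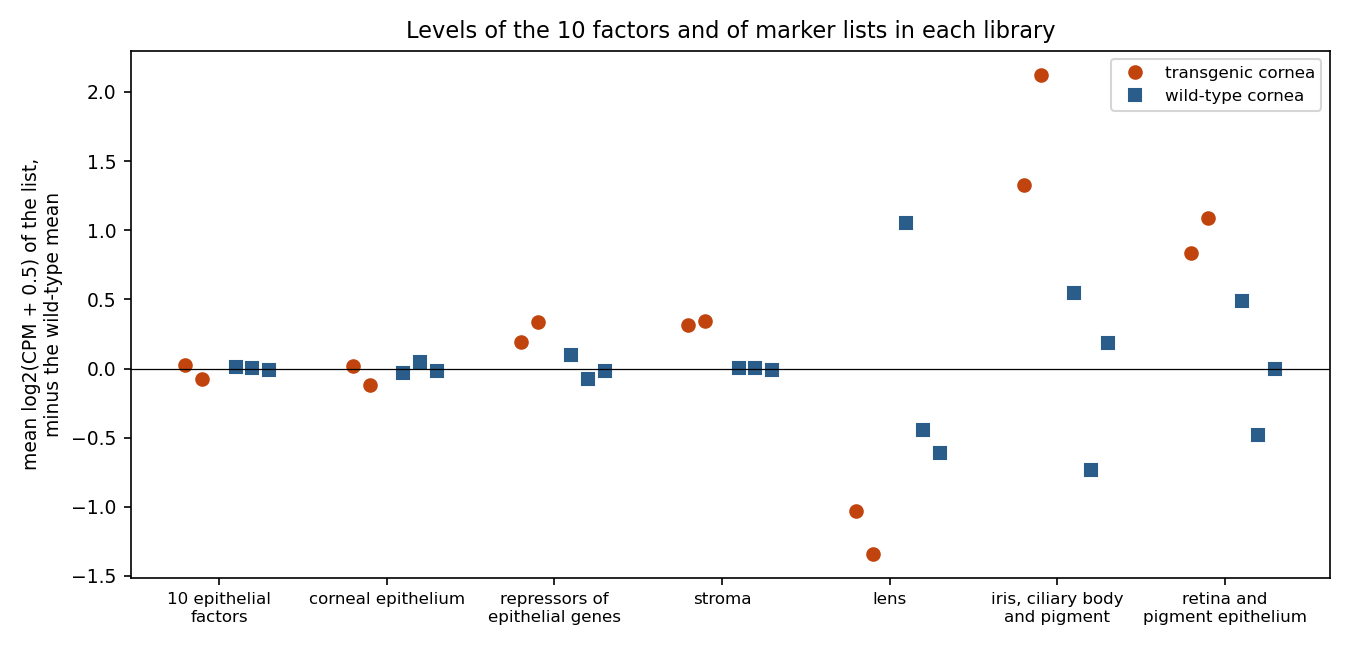
Mean log2(CPM + 0.5) of each gene list in each library, after subtracting the mean of the wild-type corneas (circles, 2 transgenic corneas; squares, 3 wild-type corneas). The 10 factors stay between -0.08 and 0.03 and the corneal epithelium list between -0.12 and 0.05, while stroma lies at 0.32 and 0.34 in transgenic corneas and lens at 1.05 in wild-type cornea 1.

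**Figure D4:**
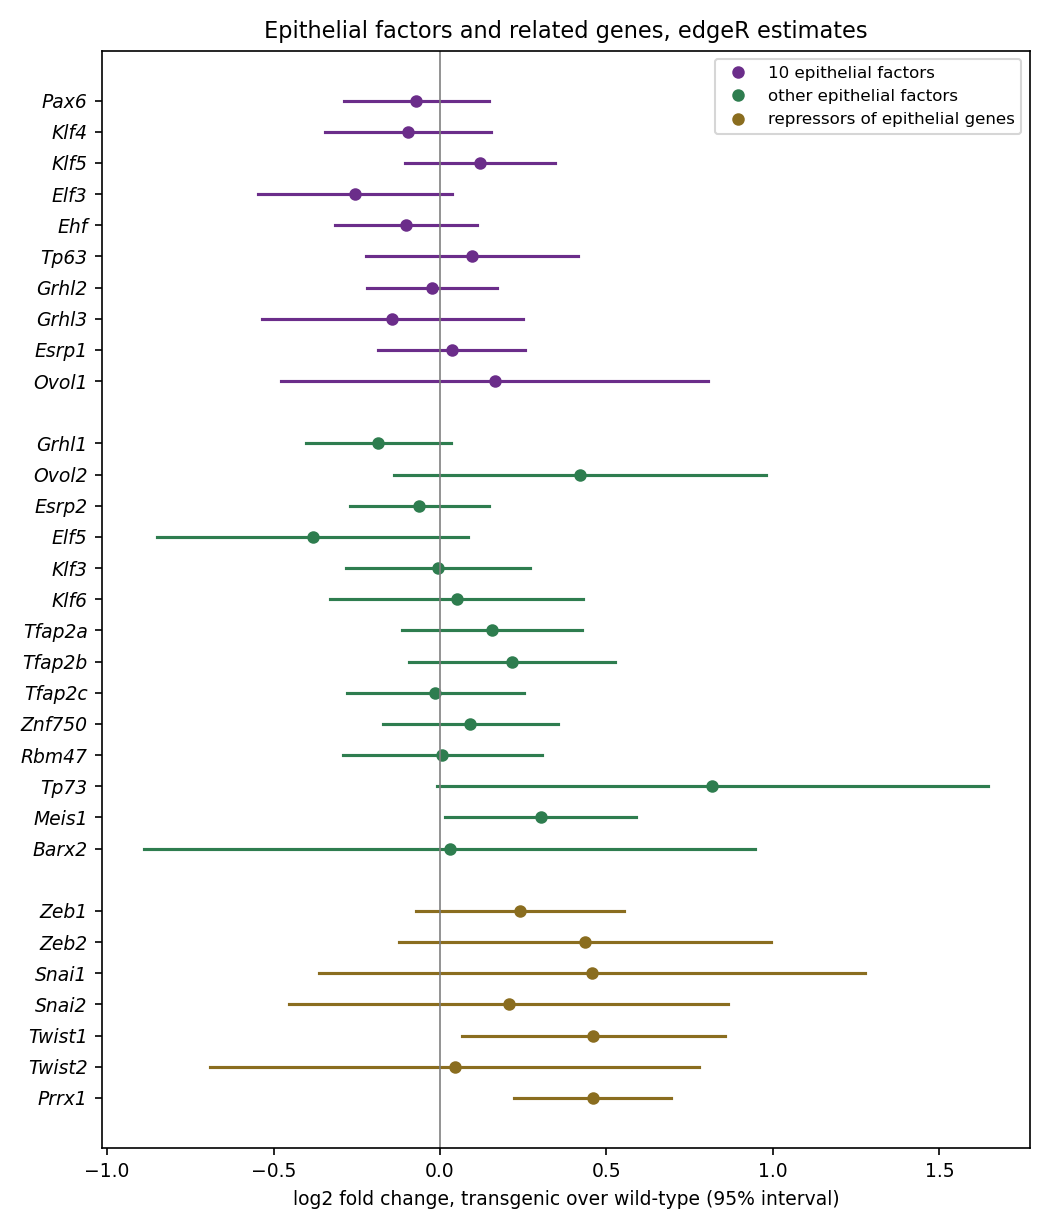
edgeR log2 fold changes, transgenic over wild-type, with 95% intervals for the 10 factors, 14 related epithelial factors and 7 repressors of epithelial genes. The intervals of all 10 factors include 0, and the 7 repressors all have estimates above 0.

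Among genes that the factors are known to regulate, none passed. Of 26 epithelial target genes tested, 10 were estimated higher and 16 lower, and the median estimate was -0.04 on the log2 scale. By edgeR, DESeq2 or limma voom 0 passed, and 1 had an unadjusted p under 0.05 by edgeR (6.32% of all genes tested). That gene was Epcam, an epithelial adhesion molecule, with 156 and 144 CPM in transgenic corneas, below the 198, 199 and 172 CPM of wild-type corneas (log2 fold change -0.34 ± 0.10, unadjusted p = 0.00878, adjusted p = 0.558). Perp, a desmosomal target of Tp63 picked out after its values were seen, also lay below all wild-type values (3116 and 2851 CPM in transgenic corneas, 3179, 3348 and 3203 CPM in wild-type corneas). Of the 26 targets only these 2 had that order, which 10.7% of all genes tested show. The opposite order was found for 0 of the 26, against 12% of all genes tested. Cldn1, a tight-junction claudin, had 167 and 147 CPM in transgenic corneas and 105, 138 and 149 CPM in wild-type corneas, overlapping between the groups (log2 fold change 0.27 ± 0.15). Krt12, a target of Pax6 and Klf4 in mouse cornea, had a log2 fold change of -0.06 ± 0.16.

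At the level of isoforms, 17 of the 18 transcripts named for the 10 factors were tested, and 0 passed by edgeR, as did 0 of all 27110 isoforms tested (1080, or 3.98%, had an unadjusted p under 0.05). Isoform counts are estimates that divide shared reads, and part of the counts of some genes sat in isoforms listed with no gene name. The named isoforms held 8.47% to 13.6% of the Grhl3 counts, 66.1% to 73.1% of the Esrp1 counts, 70.4% to 72.6% of the Klf4 counts and 77.7% to 87.5% of the Ovol1 counts. They held all or nearly all counts of the other 6 factors. Tp63 came almost wholly from 1 transcript, ENSRNOT00000002636, with 97.3% and 97.0% of its isoform counts in transgenic corneas and 97.9%, 96.9% and 96.2% in wild-type corneas.

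Pax6 was divided among 3 transcripts, and the shares of 2 of them did not overlap between the genotypes. ENSRNOT00000005882 made up 46.2% and 47.9% of its isoform counts in transgenic corneas, against 50.8%, 50.8% and 52.7% in wild-type corneas. ENSRNOT00000089525 made up 23.9% and 22.3% in transgenic corneas and 19.1%, 21.9% and 21.5% in wild-type corneas, and the remainder, ENSRNOT00000006302, overlapped between the groups. Shares that do not overlap between genotypes are common, at 17% of 4698 isoforms with a mean share of at least 5% in genes with several named isoforms. The level of ENSRNOT00000005882 itself had a log2 fold change of -0.19 ± 0.07 (unadjusted p = 0.0449, adjusted p = 1.0), the 1 isoform of the 17 with an unadjusted p under 0.05. Counting error of a Pax6 share, as a 95% Wilson interval, was at most 0.959 percentage points either way. For ENSRNOT00000089525 the closest shares had overlapping intervals, 21.65% to 22.99% in transgenic cornea 2 and 21.16% to 22.74% in wild-type cornea 2. Such intervals leave out the error of dividing reads among isoforms. The 3 shares of a library make up the whole, so a lower share of one goes with a higher share elsewhere. The sum of lens markers was lower and that of iris, ciliary body and pigment markers higher in both transgenic corneas, as given above. The part of those tissues in the Pax6 shares was not tested. The transcript table pairs no protein form with these identifiers, so which Pax6 protein each encodes is not given here.

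Grhl2 had unsteady isoform shares beneath a steady gene total. ENSRNOT00000079692 made up 17.9% and 5.67% of its isoform counts in transgenic corneas and 21.1%, 37.0% and 11.1% in wild-type corneas, which overlapped between the groups. The minor transcript of Esrp1 (ENSRNOT00000067129) made up 9.32% and 6.81% in transgenic corneas and 12.0%, 6.41% and 12.0% in wild-type corneas, and that of Ovol1 (ENSRNOT00000081567) 21.5% and 15.6% against 9.13%, 20.9% and 14.3%. Both overlapped between the groups.

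Genes whose splicing Esrp1 directs did not pass as genes. Of 5 listed (Fgfr2, Cd44, Ctnnd1, Enah and Arhgef11), 2 were estimated higher and 3 lower, and 0 passed by edgeR, DESeq2 or limma voom, with none under an unadjusted p of 0.05. Arhgef11 had the smallest p, with 104 and 98.4 CPM in transgenic corneas and 91.2, 88.9 and 96.3 CPM in wild-type corneas (log2 fold change 0.13 ± 0.09). Fgfr2, the fibroblast growth factor receptor with separate epithelial and mesenchymal splice forms, had 272 and 236 CPM in transgenic corneas and 225, 250 and 249 CPM in wild-type corneas (0.07 ± 0.10).

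Of 4 Fgfr2 isoforms, described after their values were seen, 2 had shares that did not overlap between genotypes, against 17% of the isoforms set out above. ENSRNOT00000022331 made up 22.3% and 26.4% of Fgfr2 isoform counts in transgenic corneas, above the 14.4%, 18.0% and 20.2% of wild-type corneas. ENSRNOT00000065448 made up 45.9% and 42.4% in transgenic corneas, below the 58.6%, 57.4% and 49.1% of wild-type corneas. Neither passed as an isoform level: the log2 fold changes were 0.54 ± 0.20 (unadjusted p = 0.0396) and -0.23 ± 0.13 (unadjusted p = 0.138), both with an adjusted p of 1.0. ENSRNOT00000022253, whose shares overlapped between the groups, did not pass by edgeR either (0.50 ± 0.18, unadjusted p = 0.0344). The remaining isoform, ENSRNOT00000068183, had a log2 fold change of 0.22 ± 0.20. Of all isoforms tested, 3.98% had an unadjusted p under 0.05. The named isoforms of Cd44, Ctnnd1 and Enah had shares that overlapped between the groups, as with the minor Cd44 transcript ENSRNOT00000008760 at 23.9% and 19.3% in transgenic corneas and 9.58%, 33.5% and 8.86% in wild-type corneas. Those of Arhgef11 held 0.688% to 2.51% of its counts. The files do not say which transcripts are the epithelial and which the mesenchymal form. The sum of the stromal markers, given above, was also higher in both transgenic corneas, although Lum and Dcn overlapped between the groups. The part of stromal RNA in these shares was not tested. Of the splicing factors that act in mesenchymal or most cells, 5 of 9 tested were estimated higher and 4 lower. None was called by edgeR, DESeq2 or limma voom or had an unadjusted p under 0.05, and Mbnl1 (0.15 ± 0.11) and Srsf1 (-0.12 ± 0.10) had the smallest p-values.

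**Figure D5:**
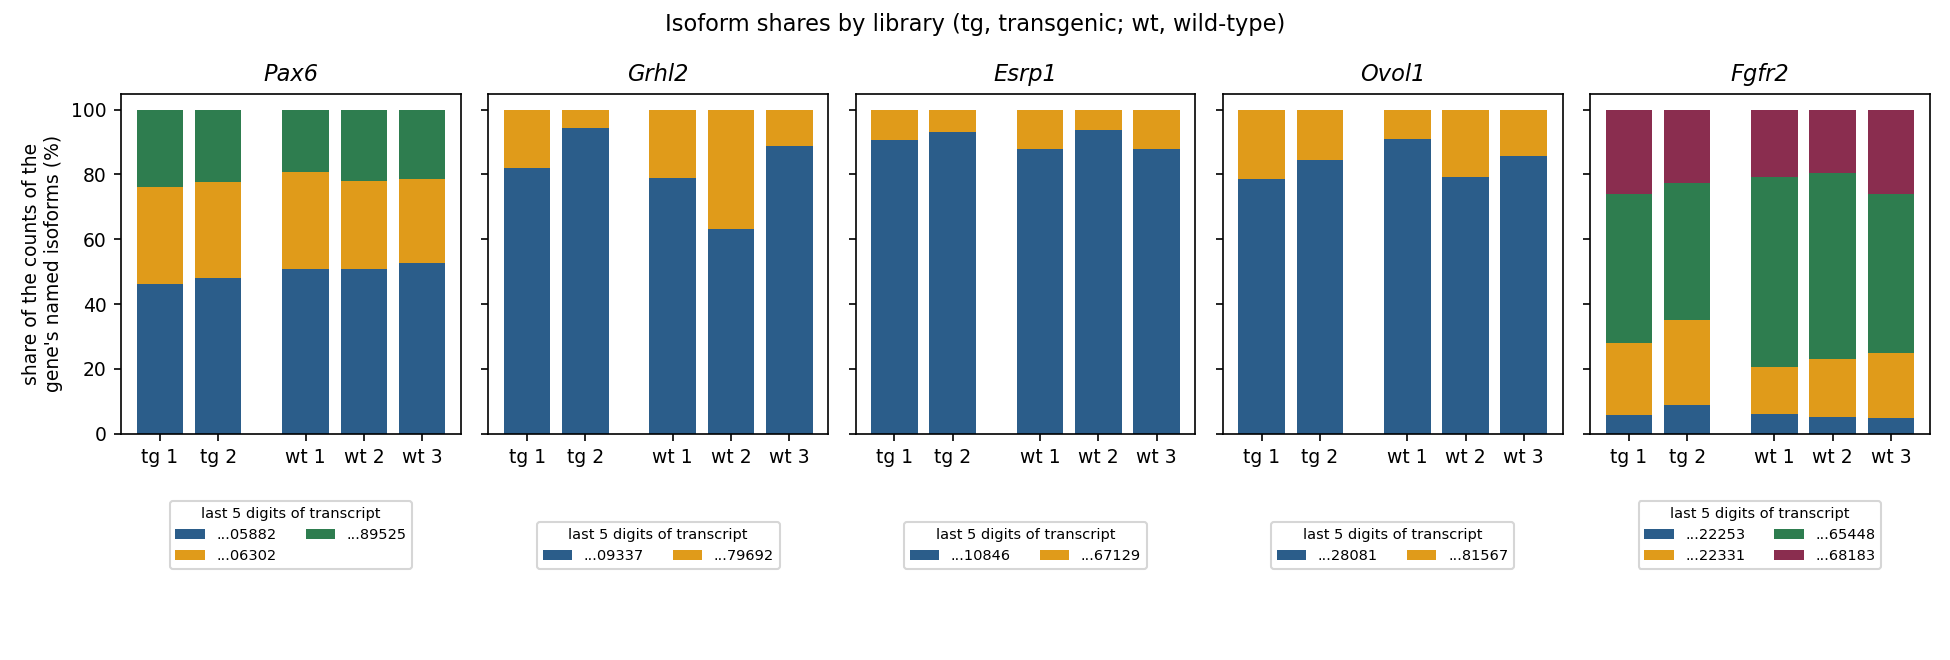
Share of each named isoform in the summed isoform counts of Pax6, Grhl2, Esrp1, Ovol1 and Fgfr2, as stacked bars for each library (tg, transgenic; wt, wild-type). The lowest block of Pax6, transcript ENSRNOT00000005882, reaches 46.2% and 47.9% in transgenic corneas and at least 50.8% in wild-type corneas, and the minor Grhl2 transcript ranges from 5.67% to 37.0%.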

How the data were processed

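RNA of 5 whole corneas was isolated with a column kit with DNase treatment and made into Illumina libraries, per the labels. The sources used here do not say whether strand was kept, so reads of a gene and an antisense partner cannot be told apart. The authors deposited expected counts (estimated counts, not whole numbers for every feature) per gene and per isoform, with 1 column per cornea; column totals differ, so the values carry no scaling. The submitters' processing notes name the rat build rn6 and, without saying which step each served, edgeR 3.28.0, DESeq2 1.26.0, RSEM 1.2.28, STAR 2.5.3a, fastp and FastQC.

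Expected counts were rounded to whole numbers, filtered with filterByExpr (minimum count 10), and scaled by TMM. The test was the robust, two-sided quasi-likelihood test of edgeR (version 4.0.16; R version 4.3.3), over all genes or all isoforms, with Benjamini-Hochberg adjustment and a threshold of 0.05. The same fit gave every adjusted p unless another tool is named. Standard errors are the size of the log2 fold change divided by the square root of F, and 95% intervals use the t distribution with the degrees of freedom of the fit. A pseudocount of 0.5 CPM was used for ratios, deviations and list levels; counting intervals cover counting error only. The fit was checked on simulated counts. Alternatives were DESeq2 1.42.0, limma 3.58.1 voom, DESeq2 size factors, no filter, the replicate number as a block and leaving out each library.

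The genes and lists were chosen with earlier results of these data known. All 10 factors are named; other factors and repressors may be named, and of the remaining lists the 2 genes of smallest p and Krt12; isoforms need a mean share of at least 5%; genes of like pattern are the 5 closest to the factor of widest range. Of the listed genes, Ovol3, Qki, Krt19, Muc5ac, Muc4, Col1a2, Dct and Otx2 were not analysed here, 2 further listed genes are not reported here, and Tff3, a goblet-cell gene, was at 0 in every library. Promoter sequences are those of RefSeq (GRCr8), matched by symbol for 6 of 10 factors.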

Additional observations from a re-analysis of the deposited data

How the results depend on the processing

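The 10 factors stayed uncalled under every alternative: edgeR with DESeq2 size factors, DESeq2, limma voom, no filter, the replicate block and each library left out gave 0 called factors, 0 called genes of the related lists and, with DESeq2 size factors, no filter and each library left out, 0 called isoforms. The number of genes called over the whole table was 1 (human NR3C2), 58 with DESeq2, 2 with no filter, 16 with the replicate number as a block, and between 2 and 36 with 1 library left out. Labels do not say that equal numbers mark a shared litter or day, so the numbers were not taken as pairs. Deviations of equally numbered corneas correlated at 6e-04 and -0.11 across genes. With 2 transgenic corneas the deviation of 1 mirrors that of the other, so these correlations cannot decide whether corneas were paired. The edgeR fit with the block left 3 factors with an unadjusted p under 0.05 and a lowest adjusted p of 0.400. Without wild-type cornea 3 the edgeR fit left 2 such factors, with a lowest adjusted p of 0.367. Over all genes tested, 1370 with the block and 1441 without that cornea had an unadjusted p under 0.05, against 841 in the main fit. Single libraries set the sign of small estimates. With 1 library left out in turn, log2 fold changes ranged from -0.21 (without transgenic cornea 1) to 0.012 (without transgenic cornea 2) for Klf4 and from -0.072 to 0.022 for Grhl2 on leaving out the same corneas. The range was -0.011 (without wild-type cornea 1) to 0.24 (without wild-type cornea 3) for Tp63, -0.28 (without wild-type cornea 3) to 0.031 (without wild-type cornea 1) for Grhl3 and -0.18 (without transgenic cornea 1) to 0.44 (without transgenic cornea 2) for Ovol1. Among isoforms it was -0.55 to 0.096 for ENSRNOT00000065247 of Grhl3, -0.18 to 0.0094 for ENSRNOT00000022255 of Klf4, -0.040 to 0.11 for ENSRNOT00000006302 of Pax6, -0.24 to 0.28 for ENSRNOT00000028081 of Ovol1 and -0.087 to 0.99 for ENSRNOT00000081567 of Ovol1. The causes were not tested. With 2 transgenic corneas, the 95% intervals of the 10 factors reach ratios of 0.685 (Elf3) and 1.75 (Ovol1), so changes up to those sizes remain within the error.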
